A study of Mus musculus with 8 samples.

Results

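Among the 38172 rows of the deposited expression table, 3349 carry a label that begins with HNG followed by a number in place of a gene name. They are transcript models with a position and a strand in the mouse genome but no gene symbol, and 0 of them carry an Ensembl, UCSC or RefSeq identifier. The label itself is not explained in the sources used here. The models described below are the 1669 (49.8% of the HNG rows) whose mean over the 8 libraries was at least 10 on the authors' scale of scaled read values. The level of a model therefore chose it, and levels are given as a description. The difference between ages was not used in that choice. An adjusted p (FDR) for age is given for 22284 named rows in the authors' deposited table and for 0 HNG rows.

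PolyA-selected RNA was sequenced from haematopoietic stem cells (HSCs), self-renewing cells of the bone marrow from which every blood lineage derives. Wild-type C57BL/6 mice gave the cells at 4 months (young) or 24 months (old), and no treatment of the animals is named. The cells were sorted fresh as SP-KSL-CD150+, a gate on dye-excluding side population cells that are positive for Kit, Sca-1 and CD150 and negative for lineage markers. Each age has 2 biological replicates, numbered 13 and 14, with 2 technical libraries each, and the number of animals behind a replicate is not stated. All p-values therefore measure the spread between these 4 samples, which may be technical in part. In bulk RNA, fewer cells of a type and less RNA per cell cannot be told apart.

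The technical libraries of a replicate were averaged, and young 13, young 14, old 13 and old 14 below mean those averages. Library totals were 40.7 M to 44.2 M scaled units. The factor that the authors applied to each library was recovered from the values, which places the reads at 22.3 M to 66.5 M per library and makes a scaled value of 10 equal to 5.4 to 16.2 reads. The 7 HSC markers Kit, Ly6a, Slamf1, Abcg2, Procr, Hlf and Mecom were all detected, with summed values of 101415 to 104144.5 in young, against 113742 to 129709 in old HSCs. Markers of other cells were present at lower sums, and 0 of all markers looked at were at 0. The sum of 7 neutrophil markers was 9314, 44186, 5524 and 16650.5 in young 13, young 14, old 13 and old 14. The sum of 6 stroma markers was 6060.5 to 6440.5 in young, against 2080.5 to 2497.5 in old HSCs, and that of 6 erythroid markers was 2949 to 3612 and 1447.5 to 1955. The sum of 5 T cell markers was 89 to 142.5 and 37 to 45.5. The sum of 5 endothelium markers was higher in old HSCs, at 6942 to 7629 in young, against 9409 to 9815 in old HSCs. Those of 5 megakaryocyte markers (17178.5 to 21771 and 20042.5 to 22267.5) and of 5 B cell markers (1111.5 to 1139 and 1171.5 to 1224) moved less. Their part in the results below was not tested.

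Unnamed transcript models can arise when reads are assembled on the genome and the assembled exons match no annotated gene. They include long noncoding RNAs, which are transcribed and often spliced and polyadenylated like messenger RNA but encode no known protein. They also include transcripts that start at a gene's promoter and run away from the gene, extensions of a gene past its annotated end, RNA from enhancers and fragments of pseudogenes or repeats. Long noncoding RNAs tend to be less abundant and more restricted to cell types than messenger RNAs, and several are known to act in blood stem cells. The table holds no measure of coding capacity, so none of the models can be assigned to one of these classes here.

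Among the models whose position leaves them next to a known gene, the closest arrangement is head to head, in which model and gene lie on opposite strands with their 5′ ends facing, so that a short stretch of DNA separates them. There were 51 such models within 250 bp of a named row. The stretch upstream of 4 of these genes is printed because it is the DNA that lies between gene and model, or overlaps it. They were the 4 most abundant models of the 27 whose facing gene has a single RefSeq promoter entry. Each window holds the 250 bases before the gene's start, 5′ to 3′ on the gene's strand, from RefSeq on GRCm38.p6. The models themselves are placed on mm9, so their own start was not located in the windows. Capitals mark matches on either strand to the CCAAT box (CCAAT or its reverse complement ATTGG) and to the GC box GGGCGG (reverse complement CCGCCC), whose matches can run into each other. TATAAA was searched as well and did not occur in these letters.
Hes5 facing HNG_029846, chr4:154960673-154960922, plus strand: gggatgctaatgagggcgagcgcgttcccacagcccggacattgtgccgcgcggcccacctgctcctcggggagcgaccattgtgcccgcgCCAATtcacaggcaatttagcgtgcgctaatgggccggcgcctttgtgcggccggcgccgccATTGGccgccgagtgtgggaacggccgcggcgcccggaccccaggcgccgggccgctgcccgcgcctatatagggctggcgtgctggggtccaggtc
Usp32 facing HNG_005428, chr11:85139956-85140205, minus strand: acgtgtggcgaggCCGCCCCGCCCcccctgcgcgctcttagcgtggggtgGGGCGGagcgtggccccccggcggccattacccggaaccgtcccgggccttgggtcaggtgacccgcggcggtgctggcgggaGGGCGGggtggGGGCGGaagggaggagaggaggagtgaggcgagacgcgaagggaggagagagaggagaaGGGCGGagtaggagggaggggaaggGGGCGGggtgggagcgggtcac
Fxr1 facing HNG_025722, chr3:34019829-34020078, plus strand: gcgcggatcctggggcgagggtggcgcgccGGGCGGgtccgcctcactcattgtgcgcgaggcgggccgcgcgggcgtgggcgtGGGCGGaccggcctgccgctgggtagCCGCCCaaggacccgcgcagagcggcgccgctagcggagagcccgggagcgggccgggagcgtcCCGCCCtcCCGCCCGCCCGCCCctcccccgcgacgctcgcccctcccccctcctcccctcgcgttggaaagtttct
Mob1b facing HNG_031592, chr5:88720621-88720870, plus strand: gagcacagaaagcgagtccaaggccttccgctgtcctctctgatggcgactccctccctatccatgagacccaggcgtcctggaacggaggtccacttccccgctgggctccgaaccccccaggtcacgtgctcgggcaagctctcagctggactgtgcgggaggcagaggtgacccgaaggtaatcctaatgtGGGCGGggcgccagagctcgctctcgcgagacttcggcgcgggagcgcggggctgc
The Hes5 window held 2 CCAAT matches and no GC box, and those of Usp32, Fxr1 and Mob1b held 7, 7 and 1 GC boxes and no CCAAT. Over all 32851 promoter windows of this length, 33.8% held CCAAT, 32.7% GGGCGG and 12.4% TATAAA. Of the 27 windows that face a model, 9 (33.3%) held CCAAT, 16 (59.3%) GGGCGG and 2 (7.41%) TATAAA. The median number of CpG dinucleotides was 20 in the 27 windows and 6 in all windows. The sets are unlike: all windows include every promoter entry, whatever its gene class or level, and 46 of the 51 facing rows are protein-coding. Whether the differences go with facing a model was not tested. These are descriptions of letters and show no binding site.

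The HNG models were shorter in the genome and far less abundant than named genes. A model spanned a median of 2618 bp (quartiles 921 and 7093 bp), against 18757 bp for the 15119 named rows of the same minimum mean. The exonic length, which the ratio of the deposited scaled value to FPKM gives exactly, had a median of 1412 bp for HNG models and 2680 bp for named rows. The exonic length was a median of 60.3% of a model's span and 14.3% of a named row's. Only 47 models (2.82%) had an exonic length equal to their span, and in the others it was shorter. The part left out can be small, as in HNG_008531, with 112 bp of exonic length in a span of 140 bp. Whether that part is intron was not tested, since only lengths were used here. On the length-corrected FPKM scale the median level was 0.627 for HNG models and 8.28 for named rows, and 688 models (41.2%) reached an FPKM of 1 and 92 reached 10. Unnamed models under the labels HAG and HND, at the same minimum mean, were short as well, with median spans of 2449 and 3440 bp. Their median FPKM was 7.49 and 0.389, so a low level was shared by the HND models only. Of the HNG models 866 lay on the plus strand. They were found on every chromosome, with 113 on chromosome 5, 110 on chromosome 7 and 4 on Y.

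**Figure D1:**
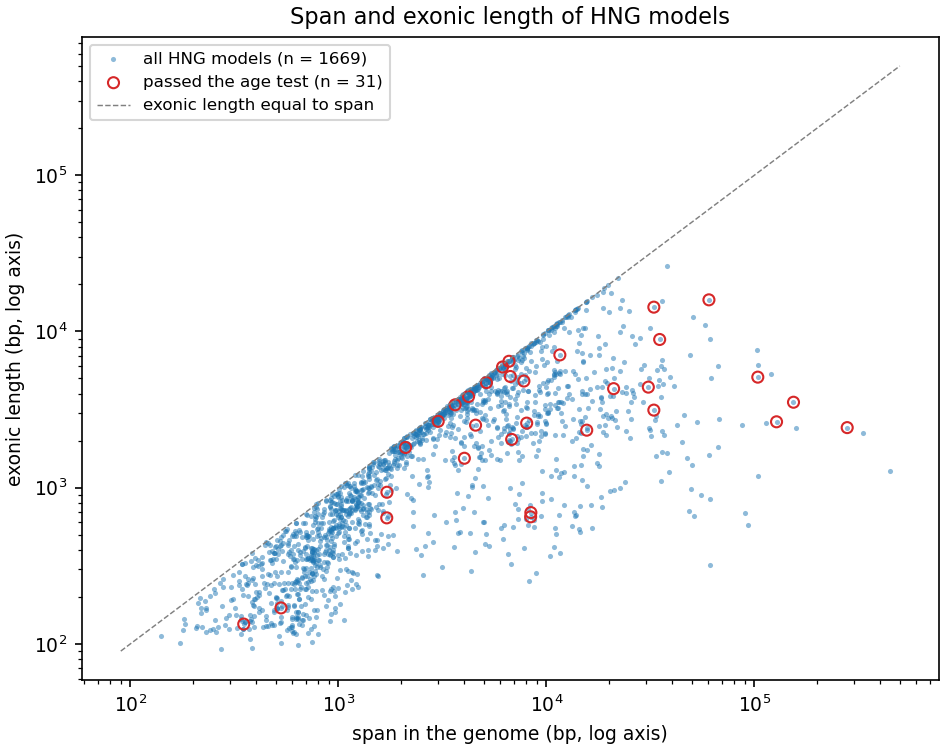
Exonic length (y axis, bp, log scale) against span in the genome (x axis, bp, log scale) of the 1669 HNG models; the dashed line marks an exonic length equal to the span, and circles mark the 31 models that passed the test for age. Exonic lengths end at 26264 bp while spans reach 448496 bp, and the 31 circled models had a median exonic length of 3137 bp and a median span of 7799 bp.

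The shortest models were HNG_008531, HNG_002019 and HNG_008530, with spans of 140, 174 and 179 bp. HNG_008530 and HNG_008531 lie beside each other on chromosome 12 inside AK045700, on the opposite strand. The longest were HNG_025689 on chromosome 3, which covers 448496 bp with 1287 bp of exon, HNG_036470 on chromosome 7 (334081 bp, 2250 bp of exon) and HNG_016951 on chromosome 17 (279343 bp, 2424 bp of exon). HNG_025689 was 10 and 9.5 in young 13 and 14 and 34 and 33 in old 13 and 14, with both old replicates above both young ones. Its log2 fold change of 1.73 (SE 0.37) did not pass the test (limma, adjusted p = 0.0687). It passed with no trend in the prior (0.0302) and with the replicate number as a block (0.00128). HNG_036470 was 72.5 and 51 in young, against 46 and 28.5 in old HSCs, and these values did not overlap either (adjusted p = 0.460).

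The most abundant model was HNG_025534 on chromosome 3, from 142679062 to 142737191 on the plus strand of mm9. It was 5652.5 and 5827 in young, against 5261 and 6028 in old HSCs, so the ages overlapped. The second model at this place, HNG_026509, lies inside it on the opposite strand and shares all of its 2877 bp with it, and it was 3239 and 3366.5 in young, against 3127 and 3605.5 in old HSCs. The nearest named row, Gm2574, lies 52305 bp from HNG_025534 and had a mean of 0.5. HNG_035383, which follows the zinc finger gene Zfp619 by 3985 bp on the same strand of chromosome 7, was 3193 and 3230.5 in young, against 3671 and 3258.5 in old HSCs. HNG_010118 on chromosome 13 was 2553 and 2219.5 in young, against 3258 and 2954 in old HSCs, with both old replicates higher (log2 fold change 0.38, SE 0.15, adjusted p = 0.306, and 0.0488 with the replicate block). It overlaps HNG_009275 on the opposite strand by 776 bp, and that model ran in parallel at 2038.5, 1749, 2546.5 and 2363.5 in the same order. HNG_040070, 1416 bp before the mediator subunit gene Med26 on chromosome 8, was 3096.5 and 1992.5 in young, against 3299.5 and 1927.5 in old HSCs, so that replicate 13 stood above replicate 14 at both ages. Per length the most abundant was HNG_009716 on chromosome 13, a model chosen here after its values were seen, with an FPKM of 207, 202, 168 and 308 in young 13, young 14, old 13 and old 14.

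At the other end, HNG_010027, HNG_014958 and HNG_016056 had just reached the required mean. HNG_014958 was 6 and 11 in young, against 17 and 6 in old HSCs, and HNG_016056 was 7 and 7 in young, against 12 and 14 in old HSCs. HNG_006612, HNG_007742 and HNG_015436 fell just short, with a mean of 9.875 each. HNG_007742 was 8.5 and 16.5 in young, against 6.5 and 8 in old HSCs. Models on either side of the limit thus had values of the same size.

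Whether the unnamed models changed with age was asked with limma over all 18318 rows that reached a scaled value of 10 in at least 2 of the 4 replicates, with Benjamini-Hochberg adjustment over all of them. Of the 1669 models 1663 were tested. Old HSCs had higher levels of 22 HNG models and lower levels of 9 at an adjusted p under 0.05, which is 1.32% and 0.541% of the tested models. Over all tested rows 2.01% were called higher and 0.54% lower, so the share of models called lay close to or below that of all rows. At an unadjusted p under 0.05 there were 211 models (12.7%) and 2573 rows in all (14.0%). A median fold of 4.23 (2.33 to 14.8) separated old from young among the 22 that rose. Among the 9 that fell, young exceeded old by a median factor of 3.41 (1.81 to 10.6). For 67 tested models only 1 age reached the required value in its replicates, and such a model had to differ to be tested. Of these 4 were called higher (HNG_000052, HNG_008518, HNG_022471 and HNG_022472) and 1 lower (HNG_045522). Without old 13 or without old 14 limma called 0 models and 0 rows in all, with 162 and 159 models at an unadjusted p under 0.05. The 31 models kept their direction there, as they had to, since their ages do not overlap. Their log2 fold changes were 0.81 to 1.19 times those with all replicates, and models that pass tend to have close replicates. Without young 13 it called 21 higher and 2 lower, and without young 14 it called 12 higher and 1 lower. Every log2 fold change compares old with young after 0.5 was added to the scaled values, so the change of models with low values is understated.

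**Figure D2:**
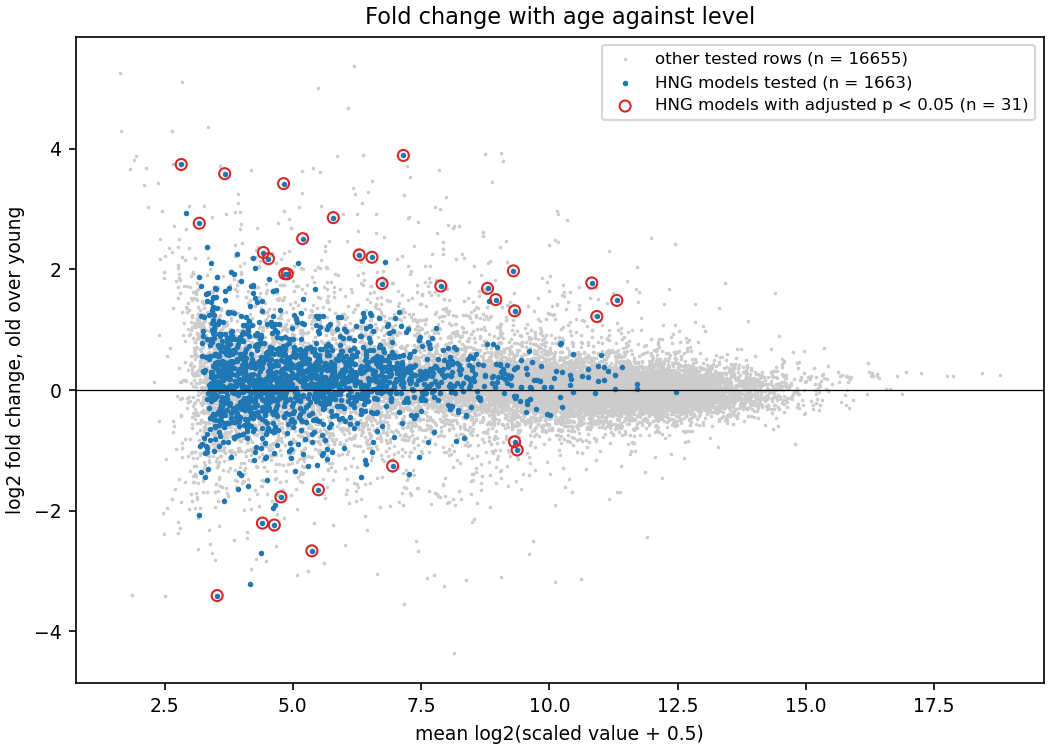
Log2 fold change of old over young (y axis) against the mean log2 scaled value plus 0.5 over the 4 replicates (x axis) for 16655 other tested rows (grey), the 1663 tested HNG models (blue) and the 31 models with an adjusted p under 0.05 (red circles). The models crowd at low levels, where the spread of fold changes is wide, and 22 circles lie above 0 and 9 below.

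As a group the models leaned to higher values in old HSCs by a small amount. Their median log2 fold change was 0.20, against 0.04 for all tested rows, 0.03 for named rows, 0.08 for the HAG models and 0.10 for the HND models, which are unnamed models under other labels. A value above 0 was fitted for 1138 of the 1663 (68.4%) and for 56.5% of all rows. Both old replicates lay above both young ones in 520 models (31.3%) and below them in 183 (11.0%), where all rows gave 24.7% and 17.4%. Among models with a mean of 300 or more the median was 0.20 over 133 models, and named rows at that level had a median of 0.01. There 7 models were called higher (5.26%) and 2 lower (1.50%), against 1.63% and 0.491% of named rows. Below that level the share called higher was smaller in models than in named rows. At means of 100 to 300 it was 2.10% against 5.38%. It was 0.916% against 2.71% at 30 to 100 and 0.670% against 1.33% at 10 to 30. The share called lower was larger in models at 10 to 30 and at 30 to 100, and smaller at 100 to 300. At means of 10 to 30 the median log2 fold changes were 0.16 and 0.10, so models and named rows lay closer together there. With median-ratio factors the models' median was 0.15 and that of all tested rows was -0.0011, with 64.5% of models above 0. With quantile normalization the medians were 0.06 and -0.0092, with 55.0% of models above 0. The lean over all rows was thus smaller with quantile normalization, while median-ratio factors lowered both medians.

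The replicates of an age differed from each other by as much as the ages did. Over the tested models the median log2 difference of young 13 minus young 14 was 0.24 and that of old 13 minus old 14 was 0.32, where all tested rows had medians of 0.05 and -0.01. Replicate 13 was the higher of the pair in 69.4% of models among young and in 72.8% among old HSCs, against 57.4% and 48.9% of all rows. In 56.1% of models it was higher at both ages, and in 37.5% of all rows. The median difference between ages, 0.20, was thus smaller than the median difference between the replicates of either age. Leaving out 1 replicate at a time moved the models' median between 0.07 (without young 14) and 0.33 (without old 14).

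**Figure D3:**
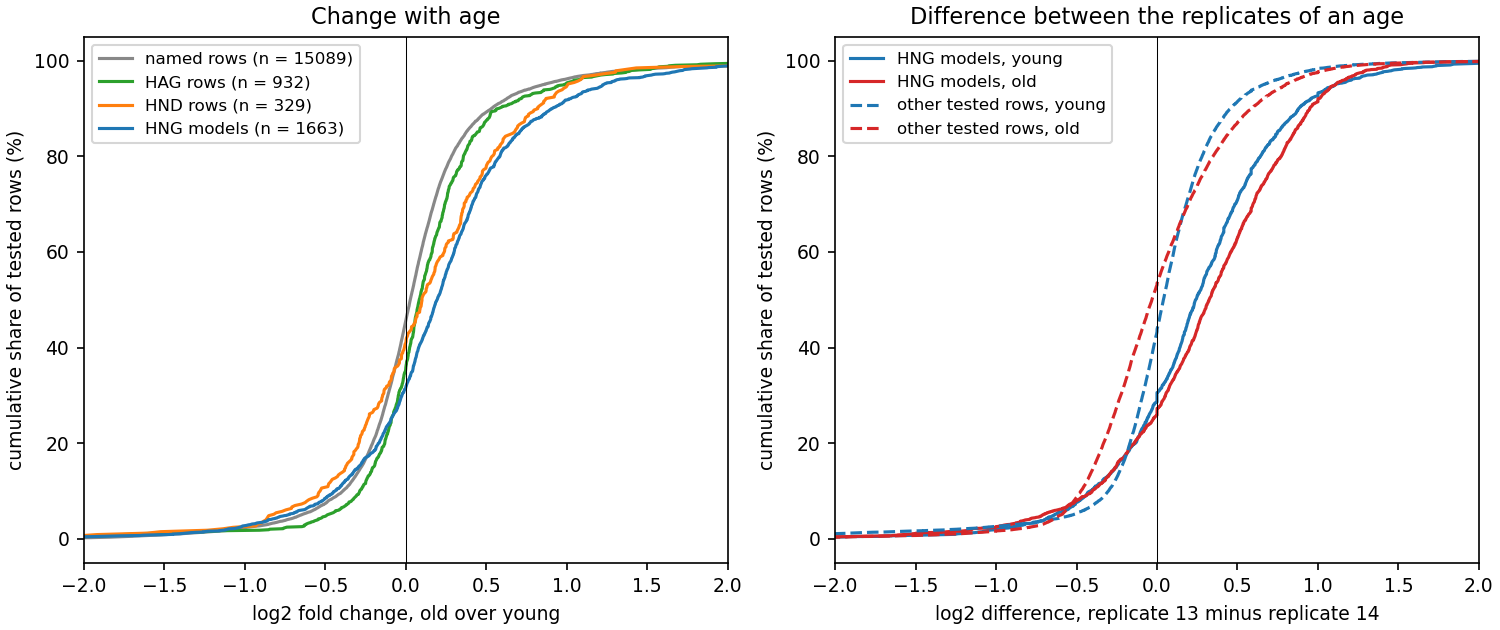
Cumulative share of tested rows (y axis, percent) by log2 fold change of old over young (left) for named rows, HAG, HND and HNG models, and by log2 difference of replicate 13 minus replicate 14 within an age (right) for HNG models (solid) and other tested rows (dashed); the x axes end at -2 and 2. The HNG curve on the left is shifted to the right of that of named rows, with medians of 0.20 and 0.03, and on the right the solid HNG curves are shifted by 0.24 in young, against 0.32 in old HSCs.

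The largest fitted rise was that of HNG_014065, a model of 2513 bp of exon on chromosome 15, from 63520359 to 63524926 on the minus strand. The young replicates 13 and 14 stood at 38 and 35 and the old ones at 633.5 and 474, so that both old replicates stood more than 10 times above the young ones. The log2 fold change was 3.89 (SE 0.25, adjusted p = 0.00197). By the plain ratio of the means, with nothing added, HNG_000052 came first with 17.5 and HNG_014065 second with 15.2. No named row lies close: the nearest, AK015428, is 42366 bp away with a mean of 2.75, and the nearest named row with a mean of at least 10, Fam49b, is 235723 bp away and had a log2 fold change of -0.03. An unnamed model of the HND kind, HND_001398, lies 1570 bp away on the same strand and rose as well, with 5 and 1.5 in young, against 63 and 29.5 in old HSCs (3.72, adjusted p = 0.0335).

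HNG_000052 on chromosome 1, 3598 bp before the telomere-binding gene Terf1 on the same strand, was at 2 and 1 in young, against 33 and 19.5 in old HSCs (log2 fold change 3.74, SE 0.54, adjusted p = 0.0199). The young values lay close to 0, far below the old ones, and the model was tested only because the old ones reached 10. With the lower-numbered technical library of each replicate alone its log2 fold change was 4.33 and did not pass (adjusted p = 0.106). Terf1 itself was 1424.5 and 1387 in young, against 1767.5 and 1710.5 in old HSCs and did not pass (0.31, adjusted p = 0.393). Farther out, Kcnb2, a potassium channel subunit gene 84826 bp from HNG_000052, was 9 and 6 in young, against 248 and 259 in old HSCs (5.01, adjusted p = 0.00197). Gm106, on the other side at 51802 bp, was 109.5 and 110 in young, against 1481 and 1853.5 in old HSCs (3.91, adjusted p = 0.00170).

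On chromosome 16 a run of neighbouring rows was higher in old HSCs. HNG_014798, with 4402 bp of exon in a span of 30916 bp, was 25 and 16 in young, against 179 and 123 in old HSCs (log2 fold change 2.86, SE 0.36, adjusted p = 0.0127). HND_001469 begins 137 bp after it on the same strand and was 10.5 and 12 in young, against 145.5 and 87 in old HSCs (3.27, adjusted p = 0.00895). Next on the same strand comes Rtp4, an interferon-induced chaperone of receptors, 14970 bp from HNG_014798, with 1070 and 864 in young, against 1891.5 and 1900.5 in old HSCs (0.98, adjusted p = 0.0306). In each of these 3 rows both old replicates stood above both young ones, as they did in 24.7% of all tested rows.

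HNG_022471 and HNG_022472 lie in line on chromosome 2, 171 bp apart on the same strand, downstream of the prefoldin subunit gene Pfdn4. HNG_022471 was 9.5 and 9 in young, against 50.5 and 43.5 in old HSCs (log2 fold change 2.28, adjusted p = 0.0257), and HNG_022472 was 3.5 and 2.5 in young, against 28 and 19 in old HSCs (2.77, adjusted p = 0.0343). Pfdn4, which ends 2660 bp before HNG_022471, was 373.5 and 507.5 in young, against 390.5 and 572 in old HSCs and did not pass (0.12, adjusted p = 0.902). Both models were tested only because their old values reached 10. With 1 technical library per replicate the log2 fold change of HNG_022471 was 1.62 (lower-numbered, adjusted p = 0.147) or 3.26 (higher-numbered, adjusted p = 0.0285).

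HNG_008518 on chromosome 12 was 4 and 2.5 in young, against 36 and 53 in old HSCs (log2 fold change 3.59, adjusted p = 0.0133), and only the old values let it enter the test. With 1 technical library per replicate its change was 4.60 (lower-numbered, adjusted p = 0.0192) or 2.90 (higher-numbered, adjusted p = 0.0644). It lies wholly inside HNG_007702 on the opposite strand, a model of 104018 bp that was 227 and 217 in young, against 382.5 and 344 in old HSCs (0.71, adjusted p = 0.143). HNG_025223 on chromosome 3 was 13 and 5 in young, against 112 and 75.5 in old HSCs (3.42, adjusted p = 0.0205). BC107364, 10469 bp from it, was at 1.5 and 0 in young, against 17.5 and 10.5 in old HSCs and did not pass (adjusted p = 0.0630). HNG_016951, the third longest model, was 11.5 and 19 in young, against 97 and 77.5 in old HSCs (2.51, adjusted p = 0.0215), and the nearest named row is Arid1b, a chromatin remodelling subunit gene 251183 bp away. All 3 models had low values in young HSCs. Their ages did not overlap, which passing the test with 2 replicates per age all but requires.

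HNG_002132 on chromosome 1 was 41.5 and 30.5 in young, against 175.5 and 165 in old HSCs (log2 fold change 2.24, adjusted p = 0.0131). HNG_004352 on chromosome 10 was 50.5 and 36.5 in young, against 214.5 and 185.5 in old HSCs (2.20, adjusted p = 0.0134). HNG_044972 on the X chromosome spans 103837 bp. It was 8.5 and 12.5 in young, against 56 and 42 in old HSCs (2.18, adjusted p = 0.0399).

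Some of the models that rose were as abundant as ordinary genes. HNG_016032 on chromosome 17, from 21610845 to 21617555 on the plus strand, lies in a row of zinc finger genes, 8291 bp after Zfp51 and 8397 bp before Zfp53. It was 291.5 and 345 in young, against 1205 and 1297.5 in old HSCs (log2 fold change 1.98, SE 0.17, adjusted p = 0.00372), and the ages lay far apart relative to the replicates. Zfp51 was 879.5 and 919 in young, against 1099.5 and 1206 in old HSCs (0.36, adjusted p = 0.353), and Zfp53 was 471.5 and 582.5 in young, against 781.5 and 891 in old HSCs (0.67, adjusted p = 0.143). Both flanking genes, on the same strand as the model, had higher old values that did not pass the test. Both old replicates stood above both young ones in 24.7% of all tested rows.

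HNG_004643 on chromosome 11, from 24126123 to 24186579, has 15934 bp of exon and is among the 6 most abundant models. It was 1712 and 1353 in young, against 5040 and 3615 in old HSCs (log2 fold change 1.49, SE 0.21, adjusted p = 0.0169). The nearest named row of at least that minimum mean is Bcl11a, a transcription factor gene of lymphoid and globin control, 52564 bp away on the same strand. Bcl11a was 8976.5 and 9175 in young, against 9388 and 9730.5 in old HSCs, a log2 fold change of 0.07 (adjusted p = 0.883). The model passed the test and the gene did not, and the difference between their changes was not tested.

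HNG_031730 on chromosome 5 was 1097 and 877 in young, against 3455 and 3275.5 in old HSCs (log2 fold change 1.78, SE 0.16, adjusted p = 0.00389). It overlaps the row of AK031816, AK141638 and AK165889 by 1184 bp on the opposite strand. That row was 1712.5 and 1423 in young, against 6117 and 4940.5 in old HSCs (1.82, adjusted p = 0.00442), so the overlapping rows rose together. The kit named in the labels does not mark strand, and how strand was treated in counting is not given in the sources used here. Reads in the shared stretch may therefore have been counted for both.

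HNG_013277 on chromosome 15 was 120.5 and 139 in young, against 411.5 and 447.5 in old HSCs (log2 fold change 1.73, SE 0.21, adjusted p = 0.0107). It overlaps HAG_014083 on the opposite strand by 2947 bp, and that row was 101.5 and 140 in young, against 265.5 and 372 in old HSCs (1.39, adjusted p = 0.0536). HNG_031522 on chromosome 5, with 14306 bp of exon, was 325.5 and 266.5 in young, against 996 and 699.5 in old HSCs (1.50, SE 0.23, adjusted p = 0.0228). AK079675, which lies 4483 bp before it on the same strand, was 7019.5 and 4981 in young, against 6662 and 4687 in old HSCs (-0.08, adjusted p = 0.927), with replicate 13 above replicate 14 at both ages.

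The remaining 6 models that rose fall outside the rule for named models and were picked after their values were seen. Of these 3 lie together on chromosome 17, with gaps of 42138 and 47123 bp between them. HNG_016886 was 1392.5 and 1166 in young, against 2986.5 and 2955 in old HSCs (log2 fold change 1.22, SE 0.15, adjusted p = 0.0121). HNG_016889 was 273 and 223.5 in young, against 973 and 651.5 in old HSCs (1.69, SE 0.24, adjusted p = 0.0194). HNG_017977, on the opposite strand, was 449.5 and 366.5 in young, against 1069 and 955 in old HSCs (1.31, SE 0.18, adjusted p = 0.0167). Between them lies HNG_017976, which overlaps HNG_016889 by 2445 bp on the other strand and did not pass, with 703 and 553 in young, against 1249 and 758.5 in old HSCs (0.64, adjusted p = 0.333). The nearest named rows, AK020236 and AK036982, had means of 70.75 and 35.375 and log2 fold changes of 0.42 and 0.07 and did not pass. In all, 6 of the 31 called models are on chromosome 17, which holds 89 of the 1669, and these include the 3 neighbours above. The chromosome was picked after its counts were seen. The share called among all tested rows of that chromosome was not counted, so no excess can be read from this. The last 3 of the 6 models picked this way were HNG_015605 on chromosome 16, HNG_031394 on chromosome 5 and HNG_003201 on chromosome 10. Their log2 fold changes were 1.93, 1.93 and 1.77.

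Old HSCs had lower levels of 9 models. The largest fall was that of HNG_045522 on the X chromosome, with 32.5 and 42 in young, against 2 and 4.5 in old HSCs (log2 fold change -3.40, SE 0.50, adjusted p = 0.0206). It was tested only because its young values reached 10. HNG_044194 begins 123 bp from it on the opposite strand and was 32 and 17 in young, against 4.5 and 8.5 in old HSCs without passing (-1.83, adjusted p = 0.158). HNG_033743 on chromosome 6 spans 127779 bp, and its nearest named row with a mean of at least 10 is 661925 bp away. It was 109.5 and 98 in young, against 17.5 and 14.5 in old HSCs (-2.66, SE 0.31, adjusted p = 0.0100). The replicates of each age lay close together, far from those of the other age.

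HNG_017754 lies on chromosome 17, 25360 bp from Satb1, which encodes a chromatin organiser of lymphoid cells, on the same strand. The model was 52 and 39 in young, against 11 and 8 in old HSCs (log2 fold change -2.20, SE 0.39, adjusted p = 0.0381). Satb1 was 515.5 and 687 in young, against 246 and 207 in old HSCs (-1.40, adjusted p = 0.0256), so model and gene fell. HNG_016681, which overlaps HNG_017754 by 5481 bp on the opposite strand, was 64.5 and 35.5 in young, against 13 and 12 in old HSCs (-1.90, adjusted p = 0.0730). HNG_017753, 9732 bp from HNG_017754 towards Satb1, was 59.5 and 46 in young, against 16 and 3.5 in old HSCs (-2.70, adjusted p = 0.106). Neither passed, and in both the young replicates stood above the old ones, as they did in 17.4% of all tested rows. Since the kit does not mark strand, HNG_016681 and HNG_017754 may share reads over most of the 6157 bp that HNG_017754 spans.

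HNG_009385 on chromosome 13 lies 877 bp after the histone gene Hist1h4m and was 51 and 48.5 in young, against 13.5 and 15 in old HSCs (log2 fold change -1.77, SE 0.34, adjusted p = 0.0492). In the same stretch HNG_009386, 4140 bp on, was 51 and 72 in young, against 19 and 33 in old HSCs (-1.26, adjusted p = 0.197). Hist1h1b, a linker histone gene 32473 bp away, was 27 and 19.5 in young, against 6.5 and 6 in old HSCs (-1.80, adjusted p = 0.0940). Replication-dependent histone messages mostly lack a polyA tail, so polyA-selected libraries hold few of their reads. All 3 rows had higher values in both young replicates, which also held for 17.4% of all tested rows, and only HNG_009385 passed.

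HNG_019078 on chromosome 18 faces the end of Mc5r, a melanocortin receptor gene, at a distance of 675 bp on the opposite strand. It was 922 and 947 in young, against 485.5 and 455 in old HSCs (log2 fold change -0.99, SE 0.16, adjusted p = 0.0273), and Mc5r was 661.5 and 579 in young, against 272.5 and 256 in old HSCs (-1.23, adjusted p = 0.0214). Model and gene fell. HNG_018160, also on chromosome 18, ends 690 bp before Pik3c3, which encodes the class III phosphoinositide kinase of autophagy, and was 828 and 894.5 in young, against 468 and 483 in old HSCs (-0.86, SE 0.16, adjusted p = 0.0460). Pik3c3 was 3153 and 3140 in young, against 2958 and 2943 in old HSCs (-0.09, adjusted p = 0.835).

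The other falls were of models with no called gene beside them. HNG_008959 on chromosome 12, whose nearest named row is 722354 bp away, was 190 and 190 in young, against 77 and 81.5 in old HSCs (log2 fold change -1.26, adjusted p = 0.0438). HNG_009875, 3396 bp before Clptm1l on chromosome 13, was 90.5 and 70 in young, against 25 in both old replicates (-1.65, adjusted p = 0.0473). Clptm1l had a log2 fold change of 0.18 (adjusted p = 0.740). HNG_019885 on chromosome 19, with 170 bp of exon, was 61 and 47 in young, against 8 and 15 in old HSCs (-2.24, adjusted p = 0.0486). With 1 technical library per replicate its change was -2.87 or -1.78 and did not pass (adjusted p = 0.0975 and 0.0996).

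**Figure D4:**
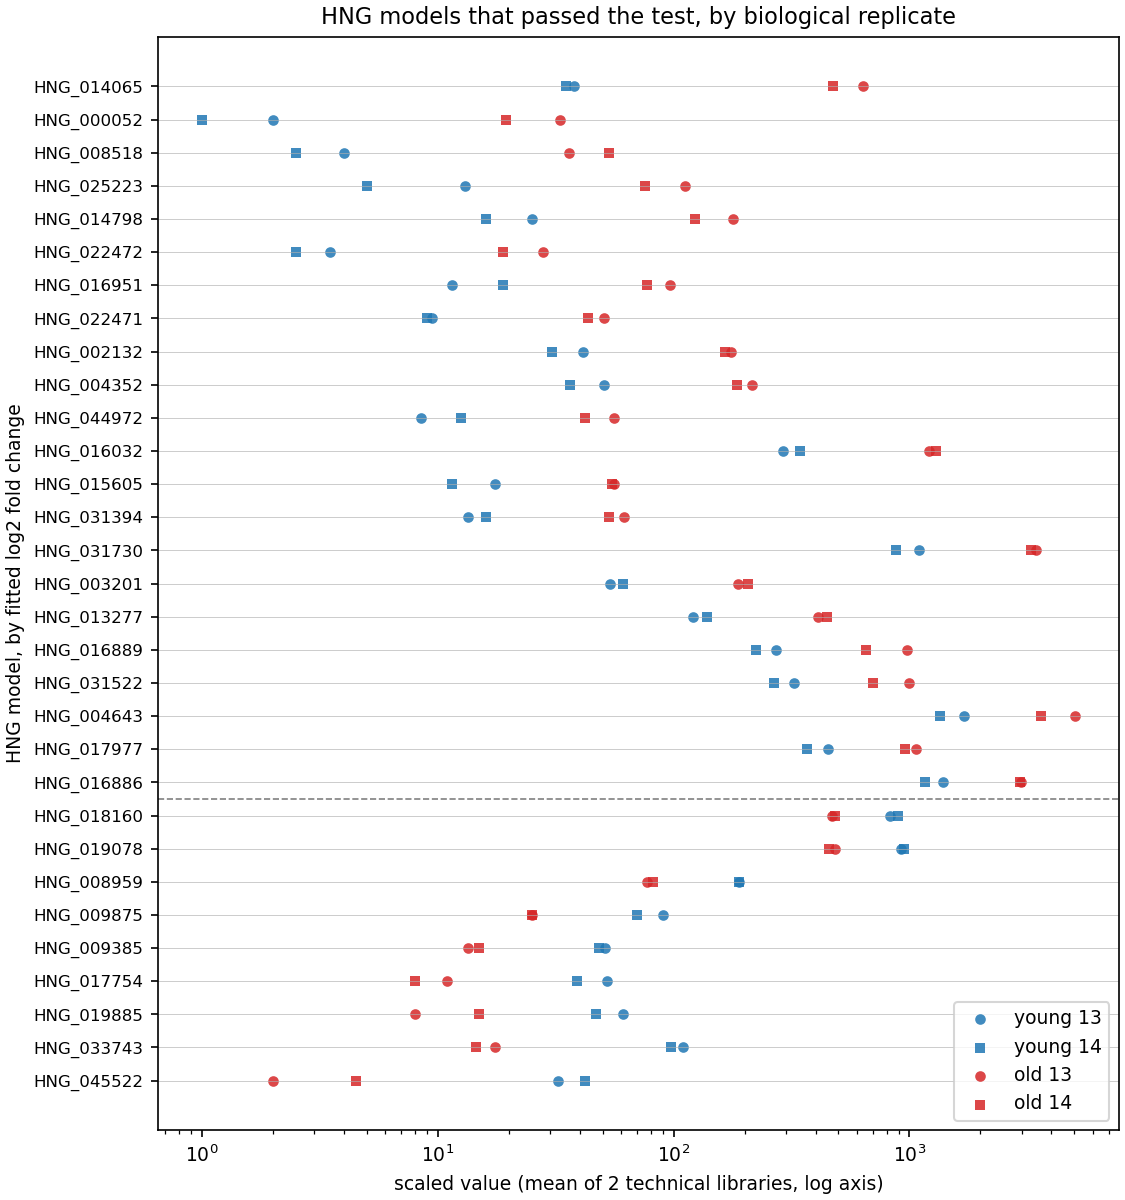
Scaled value (x axis, log scale, mean of 2 technical libraries) in young 13 and 14 (blue) and old 13 and 14 (red) for each of the 31 HNG models that passed the test, ordered by fitted log2 fold change; the dashed line separates the 22 that rose from the 9 that fell. In every line the blue and red symbols do not overlap, which the test with 2 replicates per age all but requires, and the largest fitted changes belong to HNG_014065 at the top and HNG_045522 at the bottom.

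How a model moved relative to its nearest named row depended on whether they share genome sequence. Of the 1669 models 361 overlapped their nearest named row on the opposite strand and 10 on the same strand. Within 10 kb of it there were 195 in the head-to-head arrangement, 173 upstream on the same strand, 179 downstream on the same strand and 141 downstream on the opposite strand, and 610 were farther away. Over the 309 pairs that overlapped on opposite strands and were both tested, Spearman's rho between the log2 fold changes of model and row was 0.869, and the median absolute difference was 0.05. It was 0.229 over 167 head-to-head pairs, 0.288 over 131 upstream pairs on the same strand, 0.229 over 140 downstream pairs on the same strand, 0.432 over 94 downstream pairs on opposite strands and 0.241 over 367 distant pairs. These correlations are across pairs measured in the same 4 samples, which are not independent replicates, and overlapping pairs may share reads. An example is HNG_022469 and Gm14269 on chromosome 2, which overlap by 305 bp on opposite strands. The model was 97, 85.5, 123.5 and 93.5 in young 13, young 14, old 13 and old 14, and Gm14269 was 94.5, 79.5, 121.5 and 87.5, so the values ran within a few units of each other in every replicate. The models that overlapped no other row of a mean of at least 10 numbered 1097. Of these 1093 were tested, and their median log2 fold change was 0.18. In limma 18 rose (1.65%) and 8 fell (0.732%), against 2.01% and 0.54% of all tested rows.

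**Figure D5:**
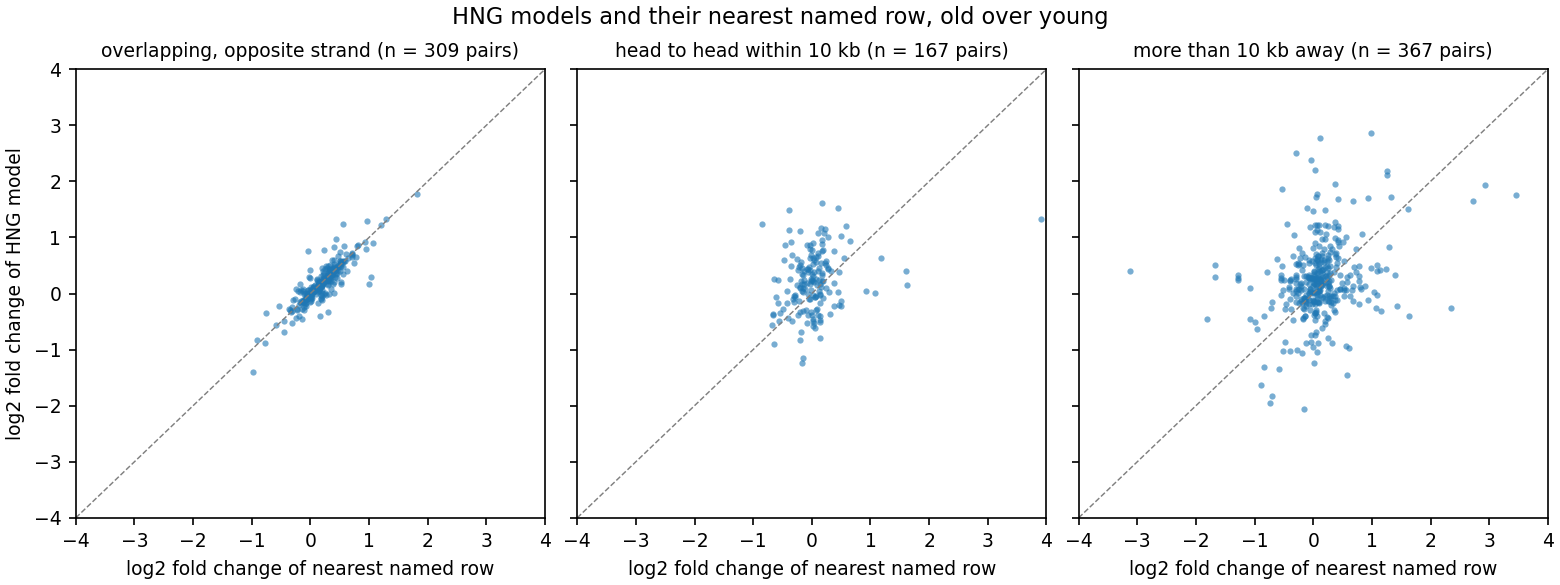
Log2 fold change of an HNG model (y axis) against that of its nearest named row (x axis), old over young, for 309 pairs that overlap on opposite strands, 167 head-to-head pairs within 10 kb and 367 pairs more than 10 kb apart; the dashed line marks equal changes. Overlapping pairs lie along the line (Spearman's rho 0.869) and the other panels spread widely around it (0.229 and 0.241).

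Among the 31 called models 5 overlapped another row of a mean of at least 10, and 6 overlapped a row of any level. The nearest named row was tested for 18 of them, and for 3 it passed in the same direction: the AK031816 row beside HNG_031730, Rtp4 beside HNG_014798 and Mc5r beside HNG_019078. The AK031816 row overlaps its model and may share reads with it. Of all tested rows 2.01% were called higher and 0.54% lower, and whether 3 of 18 differs from these shares was not tested. For 13 the nearest named row had a mean under 10. Counting only named rows of a mean of at least 10, which were tested for all 31, the number that passed was 4, with Satb1 beside HNG_017754 added. By their RefSeq class, the nearest named rows of all 1669 models were protein-coding genes for 958, pseudogenes for 338 and long noncoding RNAs for 100, and 227 had no RefSeq match by symbol.

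The 51 models head to head with a named row within 250 bp are the arrangement in which gene and model could be read from one shared stretch of promoter DNA, and 46 of the rows they face are protein-coding. None of the 51, all tested, passed in limma, where 2.01% of all tested rows were called higher and 0.54% lower, and 0 among 51 models is close to those shares. An unadjusted p under 0.05 was found for 2 of them (3.92%), and for 14.0% of all rows. Their median log2 fold change was 0.11, with 30 above 0 (58.8%, against 56.5% of all rows), and that of the facing rows was -0.02. The models were far less abundant than the genes they face, with a median scaled value of 33.1 against 1972. HNG_029846, which faces the Notch target gene Hes5 across 197 bp, was an exception among the 4 whose windows are printed above. It was 209 and 148 in young, against 221.5 and 190.5 in old HSCs, and Hes5 was 99.5 and 52.5 in young, against 89 and 75 in old HSCs. Per length this was an FPKM of 2.25 for the model and 1.24 for Hes5. HNG_005428 faces the deubiquitinase gene Usp32 across 147 bp and was 92 and 69.5 in young, against 187 and 97.5 in old HSCs (log2 fold change 0.75, SE 0.36, adjusted p = 0.440). Its FPKM was 0.449, and that of Usp32 was 12.8. HNG_025722 faces Fxr1, which encodes an RNA-binding protein, across 247 bp, and HNG_031592 faces Mob1b, a coactivator gene of the Hippo pathway kinases, across 59 bp. Their FPKM values were 0.272 and 0.244, and those of the genes 46.0 and 10.5.

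Genes that regulate HSCs were looked at for unnamed models nearby, from a list of 42 genes of which 41 were matched. Within 100 kb of 17 of them there were 27 HNG models. All 27 were tested and 0 passed in limma, which among 27 models is close to the shares of all tested rows (2.01% higher and 0.54% lower). There were 6 models (22.2%) at an unadjusted p under 0.05 and 21 (77.8%) with a fitted change above 0. The shares were 14.0% and 56.5% of all rows, and 12.7% and 68.4% of all tested HNG models. The 27 include pairs that overlap each other, such as HNG_013383 and HNG_014127. HNG_034249 begins 298 bp from Gata2, a transcription factor gene needed for HSC maintenance, on the opposite strand. It was 436.5 and 299.5 in young, against 553.5 and 417.5 in old HSCs, and the ages overlapped (log2 fold change 0.41, SE 0.25, adjusted p = 0.565). HNG_038536 lies 334 bp upstream of Cdkn1c, which encodes the cell cycle inhibitor p57, and was 51 and 47.5 in young, against 31 and 25 in old HSCs (-0.81, SE 0.32, adjusted p = 0.318), while Cdkn1c was 1276.5 and 1162 in young, against 1692 and 2088.5 in old HSCs (0.63, adjusted p = 0.127). HNG_036349 lies 845 bp from Nupr1, a stress-induced chromatin protein gene, on the opposite strand, and was 108.5 and 75 in young, against 114.5 and 90.5 in old HSCs (0.17, adjusted p = 0.869). Nupr1 was 595 and 368 in young, against 2768 and 2519.5 in old HSCs (2.50, adjusted p = 0.00452), so the gene rose beside a model whose ages overlapped. HNG_001003 lies 14109 bp from Slamf1, which encodes the CD150 of the sort, and was 140 and 162.5 in young, against 319 and 215.5 in old HSCs (0.80, SE 0.26, adjusted p = 0.219). Slamf1 was 1597 and 1735.5 in young, against 3175 and 3083 in old HSCs (0.91, adjusted p = 0.0226), so both had higher old values and only the gene passed.

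Near Ly6a, which encodes Sca-1, the overlapping models HNG_013383 and HNG_014127 showed the replicate pattern described for the models as a whole. HNG_013383 was 103.5, 38, 184.5 and 93 in young 13, young 14, old 13 and old 14. HNG_014127, on the opposite strand, was 128, 48.5, 233 and 118 in the same order. In both, replicate 13 was about as far above replicate 14 as old was above young, and neither passed (adjusted p = 0.460 and 0.436). HNG_018206, 22639 bp from the immediate early gene Egr1, was 68 and 49.5 in young, against 208 and 96 in old HSCs (log2 fold change 1.28, SE 0.41, adjusted p = 0.205). Egr1 was 2606.5, 33356.5, 2467.5 and 7422 in young 13, young 14, old 13 and old 14, with the high value in young 14.

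For the 3 models with the smallest p, the named rows whose log2 values were most like theirs over the 8 libraries were picked by Pearson's correlation; with 4 libraries per age such a value mostly reflects a shared difference between ages. For HNG_014065 these were Fap (0.999), a membrane protease gene, Irak3 and Sfmbt2. For HNG_016032 they were Abca4, Tacr1 and Arhgap29, and for HNG_031730 they were Podxl, Rftn1 and Sult1a1. All 9 correlations were at least 0.998. Of the 9 rows, 4 did not pass the test: Irak3 (log2 fold change 0.46, adjusted p = 0.163), Sfmbt2 (0.50, adjusted p = 0.234), Podxl (0.57, adjusted p = 0.0940) and Rftn1 (0.45, adjusted p = 0.183). Abca4 rose by 1.53 on the log2 scale (adjusted p = 0.00483) and Arhgap29 by 0.95 (adjusted p = 0.0201). Fap was 223 and 212.5 in young, against 1043 and 886.5 in old HSCs, Tacr1, the substance P receptor gene, was 60 and 70.5 in young, against 434.5 and 474 in old HSCs, and Sult1a1, a sulfotransferase gene, was 1896.5 and 1424.5 in young, against 6697.5 and 6788 in old HSCs.

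HNG_043216 and HNG_043266 on the X chromosome were assigned to the overlap on the same strand because the row of 4930408F14Rik covers 39599078 bp with 1790 bp of exon, a span that holds many other genes. HNG_043266 was 1266 and 945.5 in young, against 1390.5 and 1308 in old HSCs (log2 fold change 0.30, adjusted p = 0.559), and HNG_043216 was 35.5 and 29 in young, against 17.5 and 12 in old HSCs (-1.12, adjusted p = 0.245, and 0.0230 with the replicate block). HNG_035308, 2694 bp from the fatty acid receptor gene Ffar2 on chromosome 7 in the head-to-head arrangement, was 57 and 52 in young, against 152.5 and 105.5 in old HSCs and did not pass (1.21, SE 0.29, adjusted p = 0.102, and 0.000738 with the replicate block).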

How the data were processed

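PolyA-selected RNA of 8 libraries was deposited as 1 table per library and 1 table of the series, which held the same values in all 8 libraries. Per the submitters' processing notes the build is mm9, and DESeq is listed for a step that they do not give. Not given in the sources used here are the aligner, the counter, its use of strand and the way the HNG models were built. The deposited count-like values are a score, in which the authors scaled the reads of each library by its own factor (0.617 to 1.839, recovered from the whole numbers each library skips or repeats) and rounded. The deposited FPKM is that score times 20 over a length that came out whole, within 0.001, for 27330 of 27330 rows with a value, and this length is used as the exonic length. The authors' deposited log2 fold changes and FDR (adjusted p-value) are empty for HNG rows and were not used. The table starts were counted from 0 and are printed from 1.

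Technical libraries were averaged, since they are not independent. With 4 biological replicates, limma 3.58.1 under R 4.3.3 modelled log2(value + 0.5) on age alone, with a trended prior and two-sided tests. Rows with a value of at least 10 in at least 2 replicates entered. The fit was tested on simulated data. Figures were drawn with matplotlib 3.10.9. RefSeq classes were matched by symbol.

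The members and lists were chosen with earlier results of these data known. Named models were the 12 largest rises and up to 12 falls among those called, the 6 most abundant, the 2 with the smallest p in each position class, 3 on each side of the minimum mean, and the 3 longest and 3 shortest. Sequences of the models themselves are not printed, since the mm9 genome was not used here. Alternatives were the pseudocount, the filter, the scaling, the prior, single technical libraries, a replicate block, each replicate left out, and other distance and level limits.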

Additional observations from a re-analysis of the deposited data

How the results depend on the processing

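All 31 calls kept their direction under each alternative in which they were tested. Where 1 replicate was left out this had to be so, since the ages of these models do not overlap. With a pseudocount of 1 or 5, a filter on the mean of at least 10, median-ratio factors or quantile normalization the counts stayed at 20 to 22 models higher and 9 or 10 lower. With no prior trend limma called 23 and 9, of which 22 were among the 31. Without a filter on low values it called 0 models in either direction and 0 rows in all, although 187 models and 2943 rows had an unadjusted p under 0.05. A filter on a mean of at least 50 left 15 higher and 4 lower. The lower-numbered technical libraries alone gave 14 higher, 3 lower and 293 rows in all, and the higher-numbered gave 17, 2 and 314; 4 of the 31 folds moved by over 1.5 times with one or the other. Leaving out 1 replicate at a time gave 0 to 21 models higher, 0 to 2 lower and 0 to 274 rows in all; the 0 values came without old 13 or old 14, where 3669 and 1933 rows had an unadjusted p under 0.05, and the age left with 1 sample is assumed to vary like the other. The causes were not tested. With the replicate number as a block, 180 models were higher, 48 lower and 2766 rows called, and all 31 calls remained. Of the 16 named models without a call 4 gained one (HNG_010118, HNG_025689, HNG_035308 and HNG_043216). The labels give samples of both ages the same numbers without saying that a number marks a shared batch, and with only 2 numbers the pairing cannot be checked. The difference of 13 minus 14 in young and in old HSCs correlated over all rows with Pearson's r = 0.544, and over models with 0.420.

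HNG_026509 and HNG_040070, which had not passed the test, turned to -0.0217 and -0.0239 with median-ratio factors. Leaving out 1 replicate at a time turned the direction of 714 of the 1663 tested models (42.9%) at least once, 0 of them called. The called models could not turn, since their ages do not overlap. Among the named models the direction turned for 6. The range was -0.36 to 0.70 for HNG_002019, -0.47 to 0.38 for HNG_010027, -0.41 to 1.02 for HNG_014958, -0.13 to 0.0709 for HNG_025534, -0.0786 to 0.13 for HNG_026509 and -0.37 to 0.41 for HNG_040070. With a limit of 5 kb the downstream models numbered 93 on the opposite and 112 on the same strand. With 50 kb they numbered 226 and 291, upstream models 299 on the opposite and 267 on the same strand, and distant models 215. Depth limits what can be seen in low models, where a scaled value of 10 rests on 5.4 to 16.2 reads.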
